A study of Homo sapiens with 12 samples.

Results

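The genes described here encode the general splicing regulators of the serine/arginine-rich (SR) and heterogeneous nuclear ribonucleoprotein (hnRNP) families and the factors that mark the 3′ splice site and the branch point. They were taken by symbol from the count table: the numbered SRSF genes, TRA2A and TRA2B, the U2AF genes, the SF3A and SF3B genes, and the HNRNP genes, without symbols that end as pseudogenes do. Of the 63677 rows for genes, 186 matched the rule, 135 of them with a pseudogene symbol were left out, and 51 were left. Of these, 46 reached 10 counts in 3 or more samples, which are 46 of the 17092 genes tested: 12 SRSF, 2 TRA2, 3 U2AF, 8 SF3A/SF3B and 21 HNRNP genes. The 5 rows that did not were HNRNPCL1, which had 2 counts in 1 sample, and 4 additional rows for SRSF8, SRSF10, SF3B4 and HNRNPH2, which had no count in any sample.

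Splicing starts when U1 binds the 5′ splice site and U2AF binds the pyrimidine tract and the AG at the 3′ splice site, after which U2, with its SF3A and SF3B proteins, takes the branch point. SR proteins bind exons and help to recruit these factors, and kinases of the CLK, SRPK and DYRK families phosphorylate their arginine/serine-rich domains. The hnRNP proteins coat the nascent transcript, and several of them favour exon skipping where SR proteins favour inclusion.

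RNA was sequenced from Huh7 cells, a human hepatocellular carcinoma line, after 6 h of treatment. The 4 groups of 3 samples were untreated cells kept in medium only, cells given graphene oxide (GO) at 400 µg/mL, cells given GO conjugated with the ginsenoside Rg3 (GO–Rg3) at 400 µg/mL, and cells given GO–Rg3 loaded with doxorubicin (DOX), GO–Rg3–DOX, at 100 µg/mL. DOX intercalates into DNA and blocks topoisomerase II. The groups share 1 cell line, free DOX was not analysed here, and GO–Rg3–DOX was given at another dose than GO and GO–Rg3, so the part of DOX and the part of the dose cannot be told apart. The labels do not say whether the samples of a group were separate cultures, so p-values measure the spread between these samples, which may be technical.

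Counts per sample ranged from 27802871 to 38877420. All 9 hepatocyte markers passed the filter, with ALB between 58752 and 182338 counts and AFP between 122591 and 516619. Of the 5 markers of other cell types, PECAM1 had no count in any sample, PTPRC at most 2, DES at most 4 and COL1A1 at most 22, while the myeloid marker LYZ had 2737 to 6287 counts. Mitochondrial genes took 5.31% to 6.28% of counts in untreated cells and 6.89% to 7.42% after GO–Rg3, but 24.1%, 12.1% and 14.8% after GO and 19.4%, 13.9% and 12.8% after GO–Rg3–DOX, in the order of the replicates. Replicate 1 of GO stood apart from the other GO libraries, with 5.97% and 5.40% of genes off by over 2-fold from them, against 2.01% between the other two. Replicates 1 and 2 of GO–Rg3 differed as much, at 6.10%, and replicate 1 of GO–Rg3–DOX differed from the other two by 4.84% and 5.01%, while untreated pairs differed by 1.68% to 2.32%. After GO–Rg3–DOX 7 of the 9 hepatocyte markers were higher and HNF4A was lower (log2 fold change -1.02), and COL1A1 was higher (2.55). After GO 3 hepatocyte markers were lower and 1 was higher. The part of these shares and markers in the results was not tested. In bulk samples fewer cells and less RNA per cell cannot be told apart.

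In untreated cells the level of these genes spanned a wide range. Per kilobase of annotated exon, HNRNPA1 was highest at 239.8 CPM (the count relative to the library size, which was scaled by the TMM method), followed by HNRNPK at 156.3 and HNRNPC at 123.9. Among the 11 SRSF genes with an annotated length (SRSF8 had none) the level per kilobase was highest for SRSF2, at 83.3 CPM, and lowest for SRSF12, at 0.70. U2AF2 stood at 64.0 CPM per kilobase and its small partner U2AF1 at 13.7, while the U2AF1 paralogue U2AF1L4 had 0.69. These lengths join all annotated exons of a gene, 4040 bases for U2AF2 and 11095 for U2AF1, so ranks per kilobase depend on the annotation. Before the division by length U2AF2 had a mean of 258.6 CPM and U2AF1 of 152.5 CPM. HNRNPA1L2, a near-identical relative of HNRNPA1, had 3.89 CPM per kilobase. Exonic sequence of HNRNPA1 occurs in many processed copies, and the 83 pseudogene rows named after it held counts equal to 0.744% of its own, so HNRNPA1 and HNRNPA1L2 are uncertain where reads could fit either.

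After GO–Rg3–DOX the SR protein genes were mostly lower and the hnRNP genes mostly higher. At an adjusted p below 0.01 (quasi-likelihood test of edgeR, Benjamini-Hochberg adjustment over all 17092 genes), 14 of the 46 genes fell and 19 rose, while 30.5% of all genes fell and 25.5% rose. Among the 12 SRSF genes 9 fell and 1 rose, with a median log2 fold change of -0.82 against -0.06 over all genes tested. Among the 21 HNRNP genes 4 fell and 12 rose, with a median of 0.47. With the study's rule, which also asks for an absolute log2 fold change above 1, 4 genes fell and 3 rose, where 18.2% of all genes fell and 12.6% rose.

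**Figure D1:**
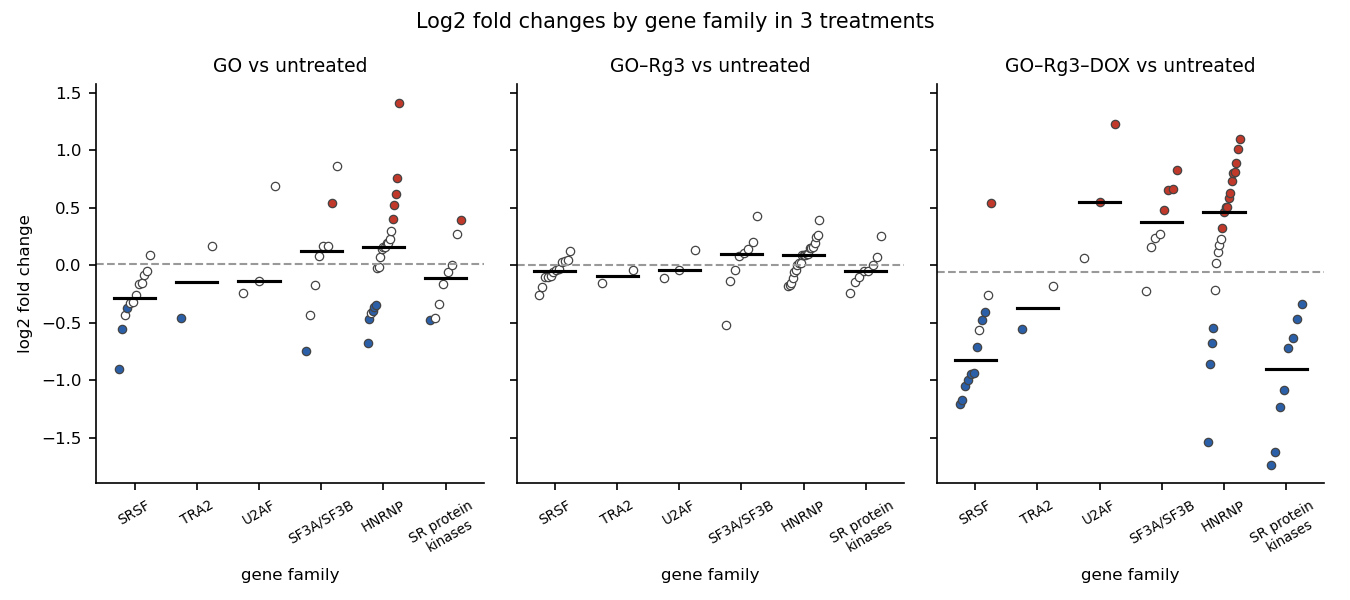
Log2 fold change against untreated cells (y axis) of each gene by family (x axis), with 1 panel for each of the 3 treatments. Filled points passed an adjusted p of 0.01 (blue lower, red higher), open points did not, black bars are family medians and the dashed line is the median of all genes tested. In GO–Rg3–DOX the SRSF median is -0.82, the HNRNP median 0.47 and the median of the SR protein kinases -0.90.

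The summed level of the SRSF genes was 2281, 2284 and 2325 CPM in untreated cells and 1466, 1522 and 1525 CPM after GO–Rg3–DOX. The summed level of the HNRNP genes was 9893, 9608 and 9948 CPM in untreated cells and 14930, 13090 and 13710 CPM after GO–Rg3–DOX. In both families all 3 treated samples lay outside the range of the untreated samples. These levels are relative to the other RNAs of a sample. With library totals alone in place of TMM, the median of all genes was -0.47 in this comparison and the split turned to 20 lower and 6 higher. In that fit HNRNPA2B1, HNRNPAB, HNRNPD, HNRNPM and HNRNPUL2 passed as higher, and HNRNPA0, HNRNPA1L2, HNRNPDL, HNRNPF, HNRNPLL and HNRNPR as lower. Relative to the median of all genes, the family medians were -0.77 for SRSF and 0.51 for HNRNP genes, against -0.77 and 0.52 with TMM. Scaling shifts all genes of a sample alike, so these relative medians could hardly change and do not test the scaling.

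**Figure D2:**
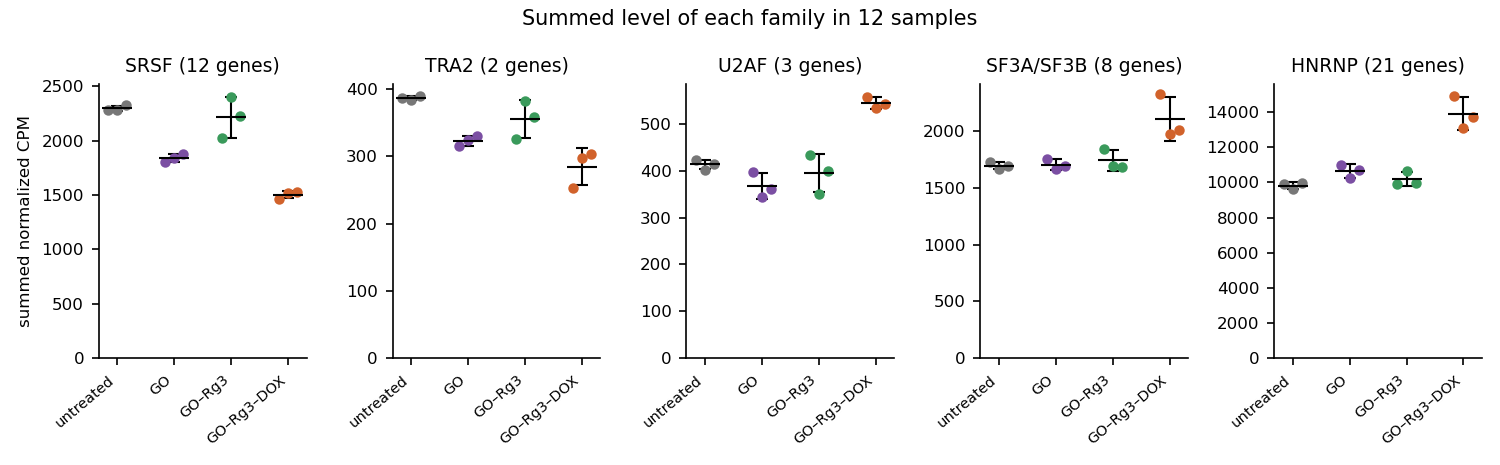
Summed TMM-normalized CPM (y axis, linear from 0) of the genes of each family in each of the 12 samples, by treatment (x axis), in 5 panels. Points are samples, bars the mean with the SD (n = 3), and the GO–Rg3–DOX samples are the lowest of all for SRSF (1466 to 1525 CPM) and the highest of all for HNRNP (13090 to 14930 CPM).

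SRSF4, a long SR protein (SRp75) at chromosome 1, 29474255 to 29508412 (GRCh37, minus strand), had 110.2, 108.1 and 108.5 CPM in untreated cells. After GO–Rg3–DOX it had 50.0, 45.2 and 46.2 CPM, which is 2.31-fold lower (log2 fold change -1.21, SE 0.09, adjusted p = 3.1e-08). SRSF2 (SC35), which binds exonic enhancers, had 240.6, 250.6 and 252.3 CPM in untreated cells. It was at 111.03, 108.87 and 109.96 CPM after GO–Rg3–DOX, 2.25-fold lower (log2 fold change -1.17, SE 0.10, adjusted p = 7.1e-08). Both genes were separated from the untreated range by far more than the spread in either group. Exonic bases of SRSF2, at chromosome 17, 74730197 to 74733415 (GRCh37, minus strand), are shared with MFSD11, which lies on the other strand, and since the sources used here do not say whether counting used strand, its counts are uncertain.

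SRSF3 (SRp20), the smallest classical SR protein, which also takes part in mRNA export, had 401.1, 405.2 and 400.0 CPM in untreated cells. It had 177.5, 208.5 and 195.0 CPM after GO–Rg3–DOX, 2.08-fold lower (log2 fold change -1.05, SE 0.10, adjusted p = 1.7e-07). SRSF12, the least abundant SRSF gene, fell from 3.16 ± 0.20 to 1.59 ± 0.37 CPM (SD, n = 3), 1.99-fold. SRSF6 fell 1.92-fold, from 240.5 ± 3.52 to 125.1 ± 4.65 CPM, and SRSF7 1.91-fold, from 213.3 ± 7.12 to 111.6 ± 0.529 CPM. In the fits that left out each of the 6 samples in turn, the falls of SRSF2, SRSF3, SRSF4, SRSF6, SRSF7 and SRSF12 passed in 6 of 6.

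The other SRSF genes changed less. SRSF10, which acts in stress-dependent splicing repression, fell by 0.71 on the log2 scale, SRSF5 fell by 0.48 and SRSF11 fell by 0.40. SRSF11 passed in 1 of 6 fits without 1 sample and did not pass with RLE factors, another scaling of the libraries. SRSF1 (ASF/SF2), the prototype of the family, had 382.6, 353.8 and 370.0 CPM in untreated cells and 309.2, 308.4 and 305.7 CPM after GO–Rg3–DOX. Its groups did not overlap, but its log2 fold change of -0.26 (95% interval -0.44 to -0.08) had an adjusted p of 0.013. SRSF8 also missed the threshold, at -0.56 with an adjusted p of 0.011. SRSF9 was the exception that rose: it had 152.3, 152.0 and 152.5 CPM in untreated cells and 222.6, 220.9 and 221.2 CPM after treatment, 1.45-fold higher (log2 fold change 0.54, SE 0.08, adjusted p = 2.6e-05). With library totals alone the log2 fold change of SRSF9 was 0.12 and it did not pass. SRSF9 shares exonic bases with GATC on the opposite strand and with NRAV on its own strand, so its counts are uncertain with either way of counting.

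The median GC content of the longest transcript was 39.8% over 11 SRSF genes and 42.4% over the 21 HNRNP genes, which were mostly higher, against 47.8% over 16622 genes tested. Across all genes the log2 fold change after GO–Rg3–DOX rose with GC content (Spearman's rho 0.36 over 16622 genes, which share libraries and are not independent, and 0.44 over 45 of the genes described here). With an offset for GC content in the fit, 9 of the 46 genes fell and 20 rose, where 5463 of all 17092 genes fell and 4259 rose. Of the SRSF genes 6 then fell and 1 rose, and the SRSF median was -0.56. SRSF8, among the 6, had no annotated GC content and so got no offset. Its log2 fold change stayed at -0.56, with an adjusted p of 0.0078 against 0.011. SRSF2, SRSF3, SRSF4, SRSF6 and SRSF7 kept an adjusted p below 0.01 with log2 fold changes of -1.08, -0.67, -0.89, -0.58 and -0.64, while SRSF5, SRSF10, SRSF11 and SRSF12 no longer passed and SRSF11 turned to 0.08. SRSF1 had 0.15 in this fit, against -0.26 without the offset.

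Promoter sequences are shown for 2 SRSF genes that fell past the 2-fold level and for HNRNPM, the HNRNP gene that rose most. They are the 250 bases before and 50 after the RefSeq start in GRCh38.p14, 5′ to 3′ on the strand of the gene, with motif matches in capitals. The motifs searched on both strands were the CCAAT box (CCAAT), the TATA box (TATAAA), the GC box (GGGCGG) and the core of the cAMP response element (TGACG), whose matches did not overlap in these windows. SRSF3, at chr6:36594112-36594411 on the plus strand, held 2 CCAAT boxes, 1 TATA box and 1 TGACG match, and SRSF4, at chr1:29181851-29182150 on the minus strand, held 2 GC boxes. HNRNPM, at chr19:8444725-8445024 on the plus strand, held none of these letters in this window.
SRSF3: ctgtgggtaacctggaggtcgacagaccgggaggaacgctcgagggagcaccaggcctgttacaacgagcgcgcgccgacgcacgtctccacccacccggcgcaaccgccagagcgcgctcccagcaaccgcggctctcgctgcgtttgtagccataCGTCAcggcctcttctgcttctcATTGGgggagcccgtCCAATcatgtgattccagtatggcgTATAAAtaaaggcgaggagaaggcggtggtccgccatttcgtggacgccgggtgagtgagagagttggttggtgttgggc
SRSF4: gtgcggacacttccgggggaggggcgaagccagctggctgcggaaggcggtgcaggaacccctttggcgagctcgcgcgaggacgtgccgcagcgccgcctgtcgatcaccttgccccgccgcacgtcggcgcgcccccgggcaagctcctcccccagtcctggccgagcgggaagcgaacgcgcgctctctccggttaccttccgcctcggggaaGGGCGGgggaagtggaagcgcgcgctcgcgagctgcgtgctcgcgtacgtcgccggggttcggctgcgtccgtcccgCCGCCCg
HNRNPM: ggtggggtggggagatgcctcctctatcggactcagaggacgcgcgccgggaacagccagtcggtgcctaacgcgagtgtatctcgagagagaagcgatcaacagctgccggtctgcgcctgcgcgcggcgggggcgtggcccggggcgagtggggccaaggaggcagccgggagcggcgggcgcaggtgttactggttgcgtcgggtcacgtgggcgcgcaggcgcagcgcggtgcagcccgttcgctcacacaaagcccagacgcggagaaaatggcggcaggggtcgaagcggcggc
Promoters matched for 42 of the 46 genes. The CCAAT box occurred in 13 of 20 HNRNP promoters (65.0%) and in 2 of 11 SRSF promoters (18.2%), against 35.7% of all 27305 promoters of the same length. The GC box occurred in 80% of HNRNP, 45.5% of SRSF and 44.6% of all promoters, the TGACG motif in 45.0%, 36.4% and 25%, and the TATA box in 15.0%, 18.2% and 12%. A match is a description of letters and not of binding.

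TRA2B, an SR-like activator of exon inclusion, fell 1.47-fold after GO–Rg3–DOX, from 280.6, 277.4 and 282.6 CPM to 167.3, 198.6 and 206.0 CPM (log2 fold change -0.56, SE 0.10, adjusted p = 0.00011). With the GC offset its log2 fold change was -0.22 and no longer passed. Its paralogue TRA2A had a log2 fold change of -0.18 (95% interval -0.38 to 0.01) and did not pass.

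The 3′ splice site and branch point factors had no gene that fell with TMM scaling. U2AF2, the large U2AF subunit that binds the pyrimidine tract, had 269.2, 249.4 and 257.2 CPM in untreated cells and 378.5, 375.8 and 385.0 CPM after GO–Rg3–DOX, 1.47-fold higher (log2 fold change 0.55, SE 0.11, adjusted p = 0.00055), but its log2 fold change was -0.05 with the GC offset, where its transcript has 60.9% GC. U2AF1, which reads the AG, had a log2 fold change of 0.07 (95% interval -0.18 to 0.31). With library totals alone U2AF1 passed as lower, at -0.36, and U2AF2 did not pass, at 0.14. U2AF1L4 rose 2.35-fold, from 1.93, 1.98 and 2.05 CPM to 4.24, 4.06 and 5.72 CPM (adjusted p = 4.1e-05), at a low level, and it shares exonic bases with an unnamed gene on the same strand.

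Of the 8 SF3A/SF3B genes 4 rose, beside 25.5% of all genes: SF3A1 by 1.59-fold, SF3A2 by 1.78-fold, SF3B2 by 1.58-fold and SF3B4 by 1.40-fold. With library totals alone none of these 4 passed. SF3A2 had 73.8, 57.8 and 63.7 CPM in untreated cells and 126.5, 114.6 and 107.0 CPM after treatment (log2 fold change 0.83, SE 0.24, adjusted p = 0.0071). It is the least certain of these, since its call was lost in each of the 6 fits without 1 sample, and with the GC offset its log2 fold change was -0.04 at 66.5% GC. SF3B4 passed in 1 of 6 such fits and not with the GC offset. SF3B1, the branch point protein that is often mutated in blood cancers, had 448.5, 427.2 and 435.4 CPM in untreated cells and 328.0, 387.2 and 410.1 CPM after GO–Rg3–DOX, a log2 fold change of -0.22 (95% interval -0.57 to 0.13) that did not pass.

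Among the HNRNP genes HNRNPM (chromosome 19, 8509651 to 8553998, GRCh37, plus strand), whose protein binds GU-rich RNA, had 355.1, 339.4 and 356.5 CPM in untreated cells. It had 865.3, 691.2 and 702.5 CPM after GO–Rg3–DOX, 2.15-fold higher (log2 fold change 1.10, SE 0.11, adjusted p = 3e-07). HNRNPA2B1, which binds RNA that is sorted into vesicles and along axons, had 1494, 1423 and 1513 CPM in untreated cells and 2762, 2433 and 2598 CPM after treatment, 1.76-fold higher (log2 fold change 0.82, SE 0.09, adjusted p = 1.4e-06). HNRNPA1, the best known antagonist of SRSF1, had 1604, 1572 and 1641 CPM in untreated cells and 2715, 2323 and 2416 CPM after treatment, 1.55-fold higher. All 3 treated samples of each gene lay above all untreated samples. HNRNPA2B1 shares exonic bases on the opposite strand with CBX3 and NFE2L3, and HNRNPU and HNRNPA3 likewise with COX20 and NFE2L2.

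HNRNPD (AUF1), which binds AU-rich elements, rose 1.85-fold, HNRNPAB 1.74-fold, HNRNPA3 1.66-fold and HNRNPL 1.5-fold. HNRNPUL2 rose 2.02-fold, from 33.1, 35.1 and 33.7 CPM to 93.7, 58.9 and 53.5 CPM, with replicate 1 of the treated cells far above the other two. Without that replicate its log2 fold change was 0.73, against 1.02, and it did not pass. HNRNPU, a scaffold protein of the nucleus, had 625.2, 603.3 and 603.7 CPM in untreated cells and 1017, 753.1 and 760.9 CPM after treatment, a log2 fold change of 0.47 (adjusted p = 0.0032) that was 0.31 and did not pass without replicate 1. HNRNPK, a poly(C)-binding protein, rose 1.26-fold (adjusted p = 0.0034), but it passed in 2 of 6 fits without 1 sample, did not pass without a count filter, and had a log2 fold change of -0.09 with library totals alone. HNRNPC, which binds uridine tracts, had a log2 fold change of 0.23 (95% interval 0.02 to 0.44) and did not pass, but passed as higher with the GC offset (0.62).

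The 4 HNRNP genes that fell were HNRNPA1L2, HNRNPDL, HNRNPF and HNRNPLL. HNRNPA1L2 had 4.97, 4.70 and 6.01 CPM in untreated cells and 1.57, 2.41 and 1.41 CPM after GO–Rg3–DOX, 2.90-fold lower (log2 fold change -1.54, SE 0.19, adjusted p = 5.1e-06), opposite to HNRNPA1. HNRNPDL, a paralogue of HNRNPD, fell 1.81-fold, from 303.8 ± 7.01 to 167.6 ± 5.87 CPM (SD, n = 3). HNRNPF, which binds G-tracts, fell 1.6-fold, and HNRNPLL, a regulator of CD45 splicing in lymphocytes, fell 1.46-fold. HNRNPH1, a close relative of HNRNPF, had a log2 fold change of 0.18 and did not pass, but passed as higher with the GC offset (0.68). Of the 4 genes HNRNPLL did not pass with the GC offset. With library totals alone HNRNPA1, HNRNPA3, HNRNPL, HNRNPH3, HNRNPU and HNRNPUL1 no longer passed as higher. In that fit HNRNPA0, with a log2 fold change of -0.41, and HNRNPR, with -0.63, passed as lower. HNRNPR passed in the other direction with the GC offset, at 0.33.

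**Figure D3:**
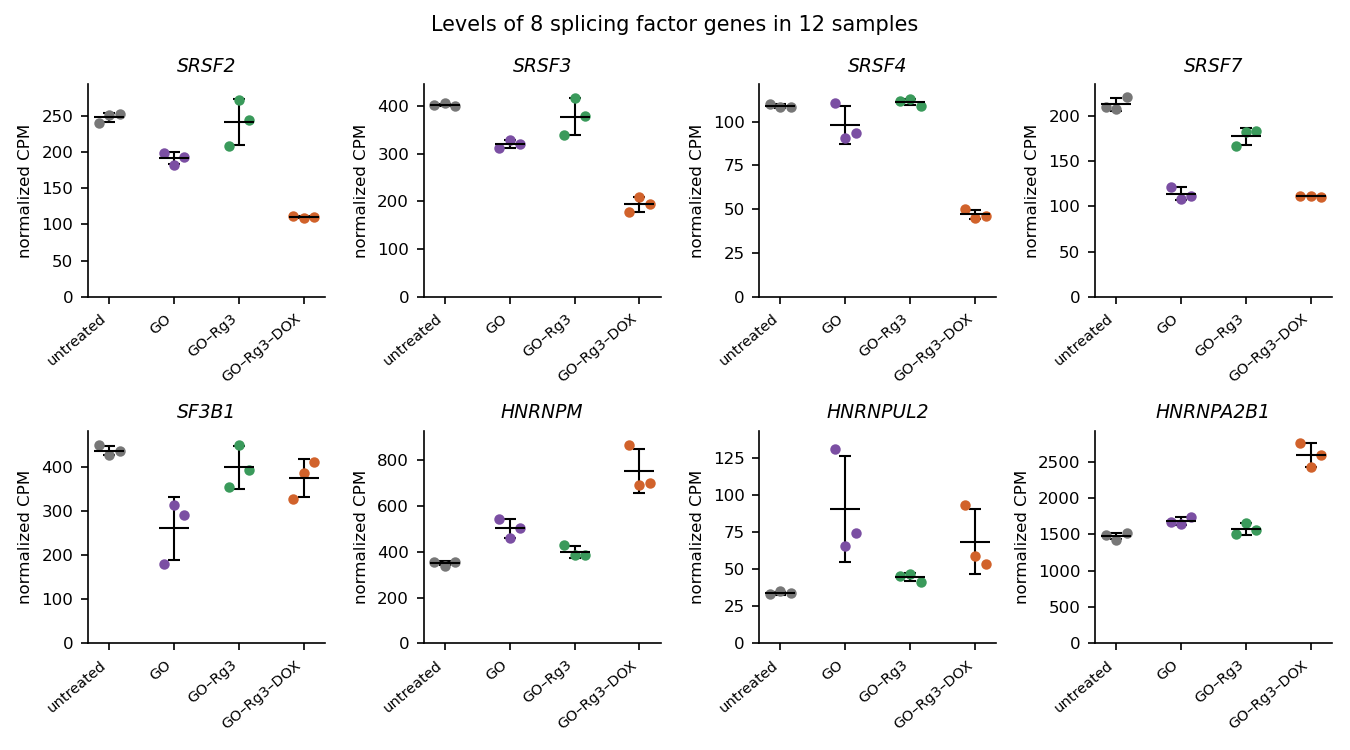
TMM-normalized CPM (y axis, linear from 0) of 8 genes in the 12 samples by treatment (x axis). Points are samples, bars the mean with the SD (n = 3): SRSF2, SRSF3 and SRSF4 are lowest after GO–Rg3–DOX, SRSF7 is low after GO and after GO–Rg3–DOX, and HNRNPUL2 is highest in replicate 1 of GO at 131.6 CPM.

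The kinases that phosphorylate SR proteins were lower as well after GO–Rg3–DOX, 8 of 8, while 30.5% of all genes fell. Their median log2 fold change was -0.90. DYRK1A had 30.1, 31.2 and 30.9 CPM in untreated cells and 7.21, 9.99 and 10.3 CPM after treatment (log2 fold change -1.74, SE 0.13, adjusted p = 2.8e-08). SRPK2 had 47.1, 45.9 and 46.2 CPM in untreated cells and 14.9, 15.1 and 15.3 CPM after treatment (log2 fold change -1.62, SE 0.12, adjusted p = 1.5e-08). PRPF4B fell by 1.23 on the log2 scale, CLK4 fell by 1.09, CLK1 fell by 0.72, CLK2 fell by 0.63, SRPK1 fell by 0.46 and CLK3 fell by 0.34. Without replicate 1 of GO–Rg3–DOX 6 of the 8 passed, since CLK1 and CLK3 did not. CLK3 passed in 1 of 6 fits without 1 sample, and CLK1 did not pass with the GC offset (-0.21).

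Other splicing proteins moved in both directions after GO–Rg3–DOX. Of 26 core snRNP proteins 5 fell and 11 rose. SNRNP40, a U5 protein, fell by 1.47 on the log2 scale and PRPF4, a U4/U6 protein, fell by 1.29, while SART1 rose by 1.20 and SNRNP70, of the U1 particle, by 0.92. Of 33 other regulators 14 fell and 7 rose: MBNL1 fell by 1.64 and RBM5 fell by 1.53, while PCBP2 rose by 1.01 and RALY by 0.90. Of 14 nonsense-mediated decay and exon junction genes 4 fell and 3 rose, with SMG8 at -1.26, SMG9 at -1.07, RBM8A at 0.61 and SMG5 at 0.60. Beside the 30.5% of all genes that fell and the 25.5% that rose, the shares were 19.2% and 42.3% for the core snRNP proteins and 42.4% and 21.2% for the other regulators, and those of the decay and junction genes, 28.6% and 21.4%, were near the shares of all genes. Their medians were 0.25 for the core snRNP proteins, -0.31 for the other regulators and -0.09 for the decay and junction genes.

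After GO alone, in the same test, 10 of the 46 genes fell and 6 rose, while 15.4% of all genes fell and 12.1% rose. None fell past the study's rule and 1, HNRNPUL2, rose, where 2.62% of all genes fell and 3.84% rose. Of the SRSF genes 3 of 12 fell, of the HNRNP genes 5 fell and 5 rose, of the SF3A/SF3B genes 1 fell and 1 rose, and of the TRA2 genes 1 fell. The SRSF median was -0.29 against 0.01 over all genes, but 0.06 with the GC offset.

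SRSF7 (9G8), an SR protein with a zinc knuckle, changed most among the SR genes: it had 210.7, 207.9 and 221.4 CPM in untreated cells and 122.0, 108.5 and 111.6 CPM after GO, 1.87-fold lower (log2 fold change -0.90, SE 0.08, adjusted p = 3e-06). It passed in 6 of 6 fits without 1 sample and at -0.67 with the GC offset. SRSF2 fell by 0.37 and SRSF10 fell by 0.55 on the log2 scale. SRSF3, with a log2 fold change of -0.33 and an adjusted p of 0.012, and SRSF1, at -0.25 and 0.025, missed the threshold. TRA2B fell 1.38-fold, from 280.2 ± 2.62 to 203.3 ± 5.31 CPM (SD, n = 3), and did not pass with the GC offset (-0.20).

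SF3B1 had 179.7, 313.0 and 290.9 CPM after GO against 448.5, 427.2 and 435.4 CPM in untreated cells, 1.67-fold lower (log2 fold change -0.74, SE 0.16, adjusted p = 0.0023). All GO samples lay below the untreated range, and replicate 1 lay lowest. Without that replicate the log2 fold change was -0.53 (adjusted p = 0.002). U2AF2 and U2AF1 had log2 fold changes of -0.14 and -0.24 and did not pass. U2AF2 passed as lower with the GC offset, at -0.50, and U2AF1 with library totals alone, at -0.38. SF3A1 rose 1.46-fold.

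HNRNPUL2, a relative of HNRNPU that acts in the DNA damage response, had 131.6, 65.7 and 74.8 CPM after GO against 33.1, 35.1 and 33.7 CPM in untreated cells, 2.67-fold higher (log2 fold change 1.42, SE 0.23, adjusted p = 0.00024). Without replicate 1 of GO it was 1.05 (adjusted p = 0.00032). HNRNPUL2 shares exons on its strand with the readthrough gene HNRNPUL2-BSCL2, and its counts are uncertain where reads could fit either. HNRNPD, with 667.8, 430.4 and 471.3 CPM after GO against 311.7, 306.2 and 307.6 CPM, rose 1.70-fold, HNRNPU rose 1.54-fold, HNRNPM 1.44-fold and HNRNPUL1 1.33-fold. HNRNPF fell 1.6-fold, from 254.4 ± 9.87 to 159.2 ± 16.6 CPM (SD, n = 3), HNRNPLL fell 1.38-fold, HNRNPC 1.32-fold, HNRNPDL 1.29-fold and HNRNPK 1.27-fold. HNRNPA1 and HNRNPA2B1 had log2 fold changes of 0.20 and 0.19 and did not pass, but both passed as higher with the GC offset, at 0.37 and 0.40.

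These counts after GO changed as single samples were left out. Without replicate 1 of GO 11 genes fell and 4 rose: U2AF1 and SF3B5 then passed as lower, HNRNPDL no longer passed as lower, and HNRNPUL1 and SF3A1 no longer passed as higher. Without replicate 1, 2 or 3 of the untreated cells 5 fell and 4 rose, and without replicate 3 of GO 6 fell. With 1 untreated sample left out the counts over all 17092 genes shrank as well. From 2639 lower and 2074 higher, they went to 1793 to 1810 lower and 1263 to 1320 higher. Without replicate 3 of GO 1853 of all genes fell, and without replicate 1 of GO 2687 fell and 1812 rose. HNRNPDL passed in 0 of 6 such fits, SRSF2, HNRNPC, HNRNPUL1 and SF3A1 in 1, HNRNPK in 2 and SRSF10 in 3. The calls that passed in 6 of 6 were the falls of SRSF7, SF3B1, HNRNPF, HNRNPLL and TRA2B and the rises of HNRNPUL2, HNRNPD, HNRNPU and HNRNPM. With the GC offset 7 fell and 13 rose, and the calls of HNRNPC, HNRNPK, HNRNPLL, HNRNPUL1, SRSF10 and TRA2B were lost. In that fit 2905 of all 17092 genes fell and 2279 rose.

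Of the SR protein kinases 1 of 8 fell after GO (SRPK2, -0.48) and 1 rose (CLK2, 0.40). Of the core snRNP proteins 8 of 26 fell and 3 rose, with SNRPG at -0.91, SNRPB2 at -0.89, SART1 at 0.69 and PRPF6 at 0.62; without replicate 1 of GO 13 fell and 1 rose. Of the other regulators 3 fell and 3 rose, among them MBNL3 at -1.29, TIAL1 at -0.43 and PCBP2 at 0.63. Of the decay and junction genes 2 fell, SMG8 at -0.53 and EIF4A3 at -0.52, and 3 rose, among them SMG6 at 0.53. Beside the 15.4% of all genes that fell and the 12.1% that rose, the shares of the kinases, 12.5% and 12.5%, were near those of all genes, as was the 14.3% of decay and junction genes that fell, while 30.8% of the core snRNP proteins and 9.09% of the other regulators fell.

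**Figure D4:**
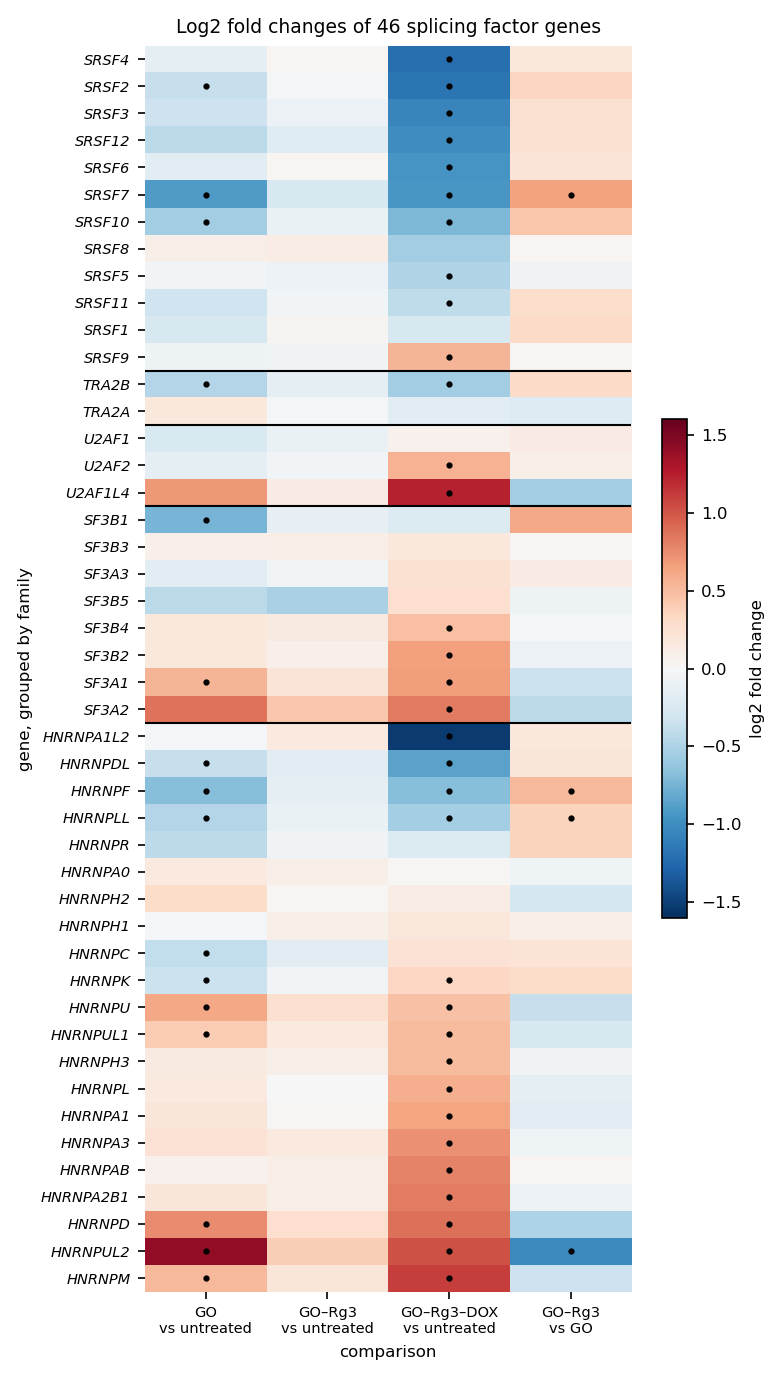
Log2 fold change (colour scale, blue lower, red higher) of the 46 genes (rows, grouped by family) in 4 comparisons (columns). Dots mark an adjusted p below 0.01: 16 genes for GO, none for GO–Rg3, 33 for GO–Rg3–DOX and 4 for GO–Rg3 against GO. The comparisons share their control samples.

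After GO–Rg3 none of the 46 genes passed in edgeR's quasi-likelihood test, in which 0.105% of all genes fell and 0.0585% rose. At an unadjusted p below 0.05, for which no share of all genes is given here, there were 2 genes. DESeq2 called 0 at an adjusted p below 0.01 and 3 at an unadjusted p below 0.05. The 2 were SF3B5, a small SF3B subunit, with a log2 fold change of -0.52 (95% interval -0.79 to -0.24, adjusted p = 0.065), and SRSF7, with -0.26 (95% interval -0.44 to -0.08, adjusted p = 0.14). SRSF7 had 166.9, 182.9 and 183.7 CPM after GO–Rg3, all below the untreated range. For SRSF1, SRSF2 and SRSF3 the 95% intervals of the log2 fold change were -0.13 to 0.23, -0.24 to 0.17 and -0.29 to 0.11, for TRA2B -0.36 to 0.05 and for SF3B1 -0.48 to 0.22. For U2AF1 and U2AF2 they were -0.35 to 0.13 and -0.29 to 0.20. For HNRNPA1, HNRNPA2B1, HNRNPC, HNRNPK and HNRNPU they were -0.17 to 0.22, -0.10 to 0.28, -0.39 to 0.03, -0.23 to 0.14 and -0.01 to 0.51. The medians were -0.05 for SRSF and 0.09 for HNRNP genes. The 8 kinases, 26 core snRNP proteins, 33 other regulators and 14 decay and junction genes also had 0 calls, with 0, 10, 2 and 2 at an unadjusted p below 0.05. Without the share of all genes at that level, these unadjusted counts are not read as results.

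GO–Rg3 and GO were given at the same dose and time and can be compared with each other. In this comparison 3 of the 46 genes were higher and 1 was lower after GO–Rg3, while 7.33% of all genes were higher and 6.25% lower. With the GC offset the split was 3 higher and 5 lower, where 1538 of all 17092 genes were higher and 1368 lower. By the study's rule 1 gene was lower and 0 higher, against 2.07% and 0.702% of all genes. SRSF7 was 1.56-fold higher after GO–Rg3 than after GO (log2 fold change 0.64, SE 0.08, adjusted p = 0.00012), with no overlap between 166.9 to 183.7 CPM and 108.5 to 122.0 CPM, and it passed in 6 of 6 fits without 1 sample. HNRNPF was 1.44-fold higher (log2 fold change 0.52, adjusted p = 0.0019) and HNRNPLL 1.28-fold higher (0.36, adjusted p = 0.0082).

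HNRNPUL2 was 2.03-fold lower, at 45.6, 46.7 and 41.7 CPM after GO–Rg3 (log2 fold change -1.02, SE 0.23, adjusted p = 0.0046), but the call was lost without replicate 1 of GO, where its log2 fold change was -0.65, and without replicate 2 or replicate 3 of GO–Rg3. HNRNPLL passed in 1 of 6 such fits and HNRNPF in 5 of 6. Without replicate 1 of GO–Rg3 there were 6 genes higher and 2 lower, and without replicate 3 of GO–Rg3 1 higher and 0 lower. Over all genes 1540 were higher and 1334 lower without replicate 1 of GO–Rg3, and 501 and 533 without replicate 3. SF3B1 had a log2 fold change of 0.61 (95% interval 0.26 to 0.96, adjusted p = 0.013), SRSF2 0.34, SRSF1 0.30, SRSF3 0.24, TRA2B 0.31 and HNRNPK 0.30, none of which passed. The log2 fold changes of U2AF1 and U2AF2 were 0.13 and 0.10, those of HNRNPA1, HNRNPA2B1 and HNRNPU -0.17, -0.10 and -0.37, and that of HNRNPC 0.22. With the GC offset U2AF2 passed as higher, at 0.35, and HNRNPU as lower, at -0.68. The SRSF median was 0.24, but -0.03 with the GC offset. Mitochondrial genes took more of the counts in GO than in GO–Rg3 samples, and the part of this share in the differences was not tested.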

How the data were processed

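Poly(A) RNA of Huh7 cells was sequenced from stranded mRNA libraries on an Illumina NovaSeq. The authors aligned reads to GRCh37 in the NGI-RNAseq pipeline and deposited raw counts per gene from featureCounts. The annotation release, the strand option and the treatment of reads that fit several genes are not given in the sources used here. Depth ran from 27802871 to 38877420 counts per sample, so counting error is small for all but the lowest genes.

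From the deposited counts, genes that reached 10 counts in 3 or more samples were scaled by TMM and fitted over all 12 samples with edgeR's quasi-likelihood test (edgeR 4.0.16, limma 3.58.1, R 4.3.3), with Benjamini-Hochberg adjustment over all genes tested in each of 4 comparisons and a threshold of 0.01. The study's rule adds an absolute log2 fold change above 1. CPM values use TMM library sizes. Fold changes come with a standard error (SE) and a 95% interval that is not adjusted. The 4 groups were taken from the labels. Positions, exon overlaps, exon lengths and GC content of the longest transcript came from GENCODE release 44 lifted to GRCh37, which had no entry for SRSF8. Promoters came from RefSeq.

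Alternatives were RLE factors, library totals alone, no mitochondrial genes, other count filters, DESeq2 1.42.0, an offset for GC content (loess per sample, span 0.5), the replicate number as a block, only the 6 samples compared, other thresholds and each sample left out in turn. The GC offset was corrected after its first output was seen, since it had counted the scaling of libraries a second time. Scripts were tested on simulated data. Tables and figures used Python 3.11.15, pandas 2.3.3, SciPy 1.17.1 and matplotlib 3.10.9.

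The genes and the lists of kinases, snRNP proteins, other regulators and decay genes were chosen by symbol with earlier results of these data known. Genes were named by rule: in each of the comparisons with calls, the 5 (untreated as reference) or 3 (GO as reference) largest changes per direction among those that passed, 12 classical genes throughout, the highest and lowest gene of each family by mean level, and up to 4 genes per list. Further genes named were chosen after their values were seen. Some genes that the rule names are not reported here.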

Additional observations from a re-analysis of the deposited data

How the results depend on the processing

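Over all alternatives, the 53 results for named genes that passed were recomputed 848 times: 726 kept direction and threshold, 115 no longer passed and 7 changed sign. For the 34 that had not passed, 544 values gave 487 without change, 34 that passed and 23 with a changed sign. The causes were not tested, except that a stricter threshold cannot add calls. Fewer samples did not always leave fewer calls. In GO–Rg3 against GO, 1334 of all genes were lower and 1540 higher without replicate 1 of GO–Rg3, against 1068 and 1253 with all samples.

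For genes lower after GO the count was 0 by the study's rule and 5 to 11 with 1 sample left out, where 1793 to 2687 of all genes were lower. For genes higher after GO it was 13 with the GC offset, 14 with the GC offset and the replicate block, and 1 by the study's rule. After GO–Rg3 1 gene, SF3B5, was lower without a count filter, with the GC offset, and with the GC offset and block. After GO–Rg3–DOX the lower count was 9 with the GC offset, 9 with offset and block, and 4 by the study's rule, and the higher count was 6 with library totals alone and 3 by the study's rule. In GO–Rg3 against GO the lower count was 3 without a filter, 3 with the block, 5 with the GC offset, 5 with offset and block, 0 with the 6 samples alone, 6 at an adjusted p of 0.05, and 0 to 2 with 1 sample left out. The higher count was 9 with DESeq2, 5 with the block, 1 with the 6 samples alone, 10 at an adjusted p of 0.05, 0 by the study's rule, and 1 to 6 with 1 sample left out.

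The labels do not say whether replicate numbers pair the samples. Over 18 pairs of samples with the same number, deviations from the group means correlated at -0.02 to 0.25, with 7 pairs over 0.1. Their mean was 0.0915, and that over pairs with different numbers was -0.0451. Deviations cancel out within a group, so the latter mean largely follows from the former and is no separate evidence of pairing. With the replicate block 14 genes were lower and 8 higher after GO, and 15 lower and 19 higher after GO–Rg3–DOX.

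Among the named results recomputed above, signs changed as follows, in log2 fold change. Sign changes of other genes, such as HNRNPR after GO–Rg3–DOX, are not listed. With the GC offset, without and with the block, SRSF1 was 0.0616 and 0.0602 after GO, and after GO–Rg3–DOX SF3A2 was -0.0411 and -0.0434, SF3B1 0.15 and 0.14, SRSF1 0.15 and 0.15, SRSF11 0.0815 and 0.0815 and U2AF2 -0.0468 and -0.0465. In GO–Rg3 against GO HNRNPC was -0.0539 and -0.0471 and SRSF3 -0.022 and -0.0211, while U2AF1 was -0.0037 with the offset. With library totals alone HNRNPC was -0.18, HNRNPK -0.0889 and U2AF1 -0.36 after GO–Rg3–DOX, and HNRNPA2B1 was 0.0484 in GO–Rg3 against GO. With the 6 samples alone HNRNPK was 0.0234, SRSF2 0.0307 and U2AF2 0.0326 after GO–Rg3. With 1 sample left out, HNRNPA1 ranged from -0.0163 to 0.0473, SRSF2 from -0.127 to 0.0608 and U2AF2 from -0.1836 to 0.0924 after GO–Rg3, U2AF1 from -0.0034 to 0.1053 after GO–Rg3–DOX, and U2AF2 from -0.044 to 0.232 in GO–Rg3 against GO. U2AF1 after GO–Rg3–DOX was -0.0154 without a filter. Depth limits mainly U2AF1L4, SRSF12, SRSF8 and HNRNPA1L2, which had the lowest counts.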
